A study of Mus musculus with 8 samples.

Results

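Cytokines, interleukins, members of the tumour necrosis factor (TNF) superfamily, colony-stimulating factors and interferon receptors were examined in hearts of ARE-/- and WT mice. Members were the protein-coding genes of the deposited ARE-/- versus WT table whose symbols start with Il and a digit, Tnfsf, Tnfrsf, Tnfaip, Csf and a digit, Ifnar or Ifngr, or equal Tnf, Lta or Ltb, with Il2rb and Il1rl1 left out. This gave 42 members among the 4820 genes, 4442 of them protein-coding, in the table. Total RNA of 4 WT and 4 ARE-/- hearts was sequenced with paired ends, all from male mice of the strain C57B6/J aged 20 to 25 weeks, and the labels name no further allele or treatment in either group. ARE was not spelled out in the labels and was taken as the AU-rich element of Ifng, the gene of interferon gamma. The bounds of the allele, the origin of the line and the littermate status of the controls were not given in the sources used here. A whole heart mixes cardiomyocytes with vessel, stromal, blood and immune cells, so fewer cells of a type and less RNA per cell cannot be told apart in any value below.

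Cytokines are secreted or membrane-bound proteins that carry signals between cells. Interleukins and colony-stimulating factors mostly bind receptors that share chains and signal through Janus kinases and STAT proteins, whereas IL-1 family and TNF family receptors signal through adaptor proteins to NF-kB and to cell death pathways. Several antagonists, among them the IL-1 receptor antagonist and IL-18 binding protein, block a ligand or its receptor. In the heart, these signals come from resident macrophages, infiltrating leukocytes, vessel cells and fibroblasts, and cardiomyocytes carry receptors for several of them.

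Library totals ran from 13416171 to 19432098 reads and did not differ between groups beyond the spread (exact two-sided permutation p = 0.514). Ifng, the gene of the allele, had 0, 3, 0 and 1 reads in WT replicates 1 to 4 and 103, 37, 27 and 61 reads in ARE-/- replicates 1 to 4, so every ARE-/- library lay above every WT library. Transcripts of the 7 listed cardiomyocyte markers of 10 were abundant in every library, with summed normalised counts of 455948 to 653573 in WT and 223479 to 333899 in ARE-/-, where all 7 were lower. ARE-/- replicate 1 and WT replicate 3 stood apart from the other 3 libraries of their groups. Chi-square per degree of freedom, a measure of how far paired libraries differ beyond counting noise, was 65.4 to 74.3 for pairs with WT replicate 3 and 4.09 to 6.71 for the other WT pairs. It was 182 to 231 for pairs with ARE-/- replicate 1 and 4.64 to 26.8 for the other ARE-/- pairs. No library was a repeat within counting noise. Each group counts 4 mice by the series' design, so libraries were taken as separate animals.

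Cytokine and receptor transcripts were mostly more abundant in ARE-/- hearts. The authors' deposited table is limited to genes past an adjusted p of 0.05 (DESeq2) and holds 24.6% of all 19606 genes tested. Every member had passed that test by being listed and other family genes have no known direction. Of the 42 members, 38 rose (90.5%) and 4 fell (9.52%), where 52.1% of all listed genes rose and 47.9% fell. The split depends on the scaling. TMM factors were computed from the listed genes alone, all selected as changed, so they are not factors of all genes tested. In edgeR refits, genes that rose made up 70.7% of those past the threshold with library totals and 42.1% with TMM factors, where 36 members rose and 1 fell, and 31 rose and 4 fell. The 4 that fell in the authors' deposited table (DESeq2) were Il15, Il12rb2, Tnfrsf19 and Tnfaip8. The median log2 difference, taken on log2(normalised count + 0.5) as the ARE-/- mean less the WT mean, was 1.51 over members and 0.44 over all listed genes. Groups did not overlap in 39 members (92.9%), against 81.5% of the listed genes, and the 3 with overlap were Il12rb2, Ltb and Tnfsf8. A log2 fold change of at least 1 in size in the authors' deposited table was found for 31 members (73.8%), against 48.2% of the listed genes. The counts are a description, since members of a family share cell types and signals and are not replicates.

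**Figure D1:**
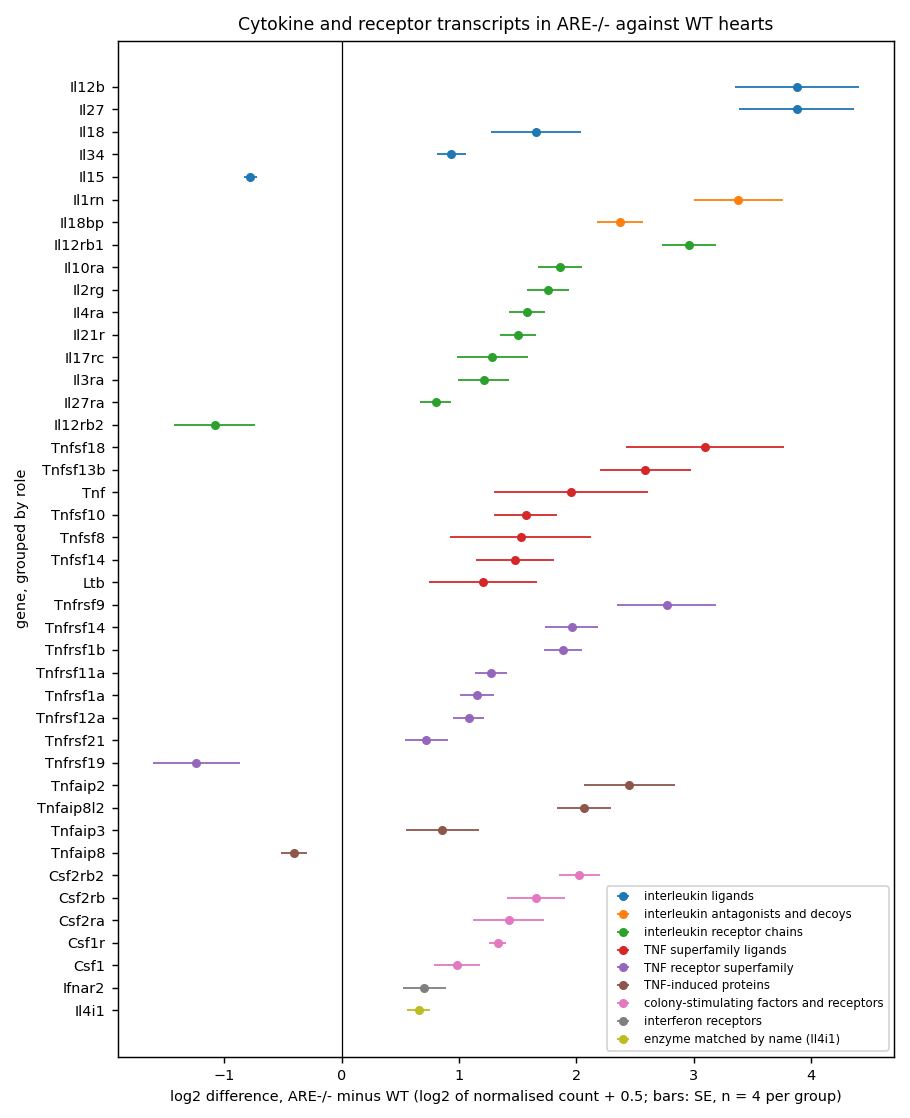
Log2 difference of each of the 42 members (x axis, ARE-/- minus WT, log2 of normalised count + 0.5), with genes on the y axis grouped and coloured by role, points for the mean and bars for the SE of 4 libraries per group. Of these, 38 lie right of 0 and 4 lie left of it, from -1.24 for Tnfrsf19 to 3.88 for Il12b and Il27.

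Calls were also read with libraries left out or summed. In the edgeR refit of the listed genes with all libraries, 38 members passed the threshold, where 4292 of the 4820 listed genes passed. The 4 members that did not pass were Il12rb2, Ltb, Tnfaip3 and Tnfsf8. In edgeR fits that left out a single library, 30 members passed in all 8. The other 12 missed the threshold in at least 1, and those 4 were among them. Each of those 8 fits passed 2765 to 4527 of all listed genes, and the share passing in all 8 was not counted. With the 3 closer libraries of each group summed to a single replicate, 2 replicates per group were left. In that fit 7 members still passed and all 7 rose, namely Il18bp, Il1rn, Il12rb1, Il10ra, Tnfsf13b, Tnfrsf1b and Tnfaip8l2. Of the 297 listed genes that passed it, 91.9% rose, so the shared direction of the 7 is close to that of all genes passing. No member changed direction in any of these fits, but all had been selected by the same contrast on the same libraries.

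Interleukin ligands were few among the listed genes and moved both ways. Of 36 ligand genes on the list used here, 5 were listed, with 4 higher and 1 lower and a median log2 difference of 1.65. Il12b, which encodes the p40 chain shared by IL-12 and IL-23, had 3 WT reads in all and 86 ARE-/- reads, a ratio of 23.4 (exact 95% interval 7.74 to 116, for counting error alone). Il12b stood at 1.20, 1.20, 0 and 1.03 normalised counts in WT replicates 1 to 4 and at 32.7, 15.7, 14.9 and 12 in ARE-/- replicates 1 to 4. WT libraries were near 0, each ARE-/- library was above them, and ARE-/- replicate 1 was the highest. Il27, the p28 chain of IL-27, likewise had 3 WT reads and 80 ARE-/- reads, a ratio of 21.8 (7.18 to 108). Across replicates 1 to 4, Il27 had 1.20, 1.20, 0 and 1.03 normalised counts in WT and 22.9, 23.5, 13.2 and 12.8 in ARE-/-. Both transcripts were thus close to undetected in WT hearts and low in ARE-/- hearts. By DESeq2, the authors' deposited table gave an adjusted p of 1.9e-06 for Il12b and 1.2e-06 for Il27. The partner chains of the same cytokines were Ebi3, which pairs with p28 and had a log2 difference of 1.56 ± 0.59 (SE), and Il12a and Il23a, which were not listed. For Ebi3 the adjusted p was 0.0478 in the authors' deposited table (DESeq2), and the call was lost in the edgeR refit of all libraries (adjusted p = 0.0748) and in all 8 refits without a single library. Il27 overlaps Apobr on the opposite strand, and the counter's use of strand was not given, so its reads are uncertain.

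Il18, an IL-1 family cytokine that drives interferon gamma release by lymphocytes, rose. Normalised counts of Il18 were 22.8, 10.8, 18.4 and 10.3 in WT replicates 1 to 4 and 80.9, 34.7, 43 and 41.7 in ARE-/- replicates 1 to 4. Groups did not overlap, and ARE-/- replicate 1 lay well above the other libraries of its group. On the log2 scale Il18 differed by 1.65 ± 0.38, with an adjusted p of 0.00064 in the authors' deposited table (DESeq2). Il34, a second ligand of the receptor Csf1r, was higher in every ARE-/- library. Il34 stood at 26.4, 35.9, 37.8 and 34.9 normalised counts in WT replicates 1 to 4 and at 62.1, 70.5, 60.6 and 64.9 in ARE-/- replicates 1 to 4. The values were even within each group and did not overlap. A log2 difference of 0.94 ± 0.12 was found for Il34, with an adjusted p of 0.00234 in the authors' deposited table (DESeq2). Il34 overlaps the antisense genes Gm15894 and Gm15895, and its call was lost with GC offsets, which remove the trend with transcript GC content (edgeR adjusted p = 0.203).

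Il15, which supports NK cells and memory T cells and is known as an interferon-inducible gene in macrophages, fell. The gene lies on chromosome 8, 82331637 to 82403222, reverse strand (mm10, ENSMUSG00000031712). Across replicates 1 to 4, Il15 had 480.5, 449, 498 and 468 normalised counts in WT and 294, 262, 259 and 291 in ARE-/-. Every ARE-/- library was below every WT library, and the libraries that stood apart were close to the others for this gene. Il15 differed by -0.78 ± 0.06 on the log2 scale (SE, n = 4 per group), the smallest SE of the 42 members, and the adjusted p was 9.3e-08 in the authors' deposited table (DESeq2). Per length, Il15 stood at 14.7 ± 0.922 in WT and 9.89 ± 1.49 in ARE-/- FPKM (± SD of 4 libraries), the highest of the 5 listed interleukin ligands in both groups. The call was lost in 1 of 17 refits, that with the closer libraries summed (edgeR adjusted p = 0.333, log2 value -0.77). The other alternatives of the 20 reused the authors' adjusted p, so the call could not be lost there. The receptor chain Il15ra was not listed.

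Of 8 interleukin antagonists, decoys and related genes on the list, 2 were listed, and both rose, with a median log2 difference of 2.87. Il18bp, a secreted protein that binds IL-18 and blocks it, had the smallest adjusted p of all members, 9.0e-24 in the authors' deposited table (DESeq2). The gene lies on chromosome 7, 102015079 to 102018155, reverse strand (mm10, ENSMUSG00000070427). Normalised counts of Il18bp were 102, 99.3, 122 and 99.7 in WT replicates 1 to 4 and 787, 436, 502 and 518 in ARE-/- replicates 1 to 4. All ARE-/- libraries were far above all WT libraries, and ARE-/- replicate 1 was again the highest. On the log2 scale Il18bp differed by 2.37 ± 0.20, from 106 ± 10.9 to 561 ± 155 normalised counts (SD, n = 4 each). Il1rn, the antagonist of the IL-1 receptor, rose from a lower level. Il1rn stood at 7.21, 5.98, 7.74 and 4.11 normalised counts in WT replicates 1 to 4 and at 133, 53.7, 62.3 and 48.1 in ARE-/- replicates 1 to 4. WT libraries held few reads and did not overlap with ARE-/- libraries. A log2 difference of 3.38 ± 0.38 was found for Il1rn, with an adjusted p of 7.0e-12 in the authors' deposited table (DESeq2). The genes Il1a, Il1b, Il1r1, Il1rap and Il18r1 of the same pathways were not listed. Neither were the other 6 of the 8 genes, namely Il1r2, Il13ra2, Il22ra2 and Il36rn, and the related genes Il1rapl1 and Il1rapl2.

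**Figure D2:**
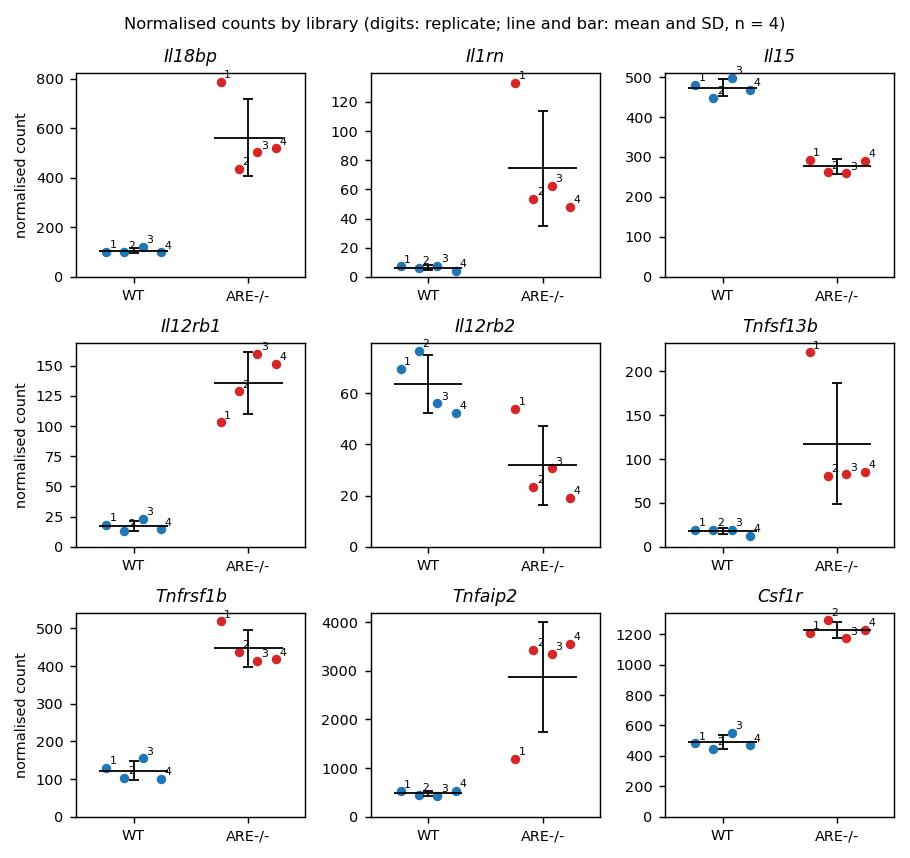
Normalised counts (y axes, each starting at 0) of 9 members in the 4 WT and 4 ARE-/- libraries, with points for libraries, digits for replicate numbers, and lines and bars for the mean and SD. Il15 and Il12rb2 are lower in ARE-/-, the other 7 are higher, and ARE-/- replicate 1 lies well above its group for Il18bp, Il1rn and Tnfsf13b and well below it for Tnfaip2.

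Interleukin receptor chains rose in 8 of the 9 listed members, out of 34 chains on the list, with a median log2 difference of 1.503. Il12rb1, the chain shared by the receptors of IL-12 and IL-23, lies on chromosome 8, 70808449 to 70821424, forward strand (mm10, ENSMUSG00000000791). Across replicates 1 to 4, Il12rb1 had 18, 13.2, 23.2 and 14.4 normalised counts in WT and 103, 129, 159.8 and 151 in ARE-/-. Each ARE-/- library lay far above each WT library, and ARE-/- replicate 1 was the lowest of its group. Il12rb1 differed by 2.96 ± 0.23 on the log2 scale, with an adjusted p of 4.2e-21 in the authors' deposited table (DESeq2). Il12rb2, which pairs with Il12rb1 in the IL-12 receptor and carries its STAT4 signal, went the other way. Normalised counts of Il12rb2 were 69.7, 76.6, 56.2 and 52.4 in WT replicates 1 to 4 and 54, 23.5, 30.7 and 19.2 in ARE-/- replicates 1 to 4. The groups overlapped, because ARE-/- replicate 1 lay above WT replicate 4 while the other ARE-/- libraries lay below all of WT. On the log2 scale Il12rb2 differed by -1.08 ± 0.34, and the adjusted p was 0.0296 in the authors' deposited table (DESeq2). Il12rb2 did not pass in the edgeR refit of all libraries (adjusted p = 0.0543), passed without ARE-/- replicate 1 (adjusted p = 0.00112, log2 value -1.37) and missed in the other 7 refits without a library, with edgeR adjusted p between 0.0829 and 0.155. The gene overlaps Serbp1 on the opposite strand.

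Il2rg, Il4ra and Il10ra were higher as well. Il2rg is the common gamma chain of the receptors for IL-2, IL-4, IL-7, IL-9, IL-15 and IL-21. It stood at 49.2, 64.6, 71.6 and 47.3 normalised counts in WT replicates 1 to 4 and at 239, 170.1, 186 and 191 in ARE-/- replicates 1 to 4. Groups did not overlap, and the log2 difference was 1.76 ± 0.18 with an adjusted p of 6.9e-13 in the authors' deposited table (DESeq2). Il2rg overlaps the protein-coding gene Gm20489 on the same strand. The beta chain Il2rb, which is no member here and pairs with Il2rg in the IL-15 receptor, rose by 2.91 ± 0.31. For Il4ra, the chain that binds IL-4, normalised counts were 223, 163, 234 and 181 in WT replicates 1 to 4 and 499, 658, 605 and 623 in ARE-/- replicates 1 to 4. Every ARE-/- library lay above every WT library. A log2 difference of 1.58 ± 0.15 was found for Il4ra, with an adjusted p of 4.4e-16 in the authors' deposited table (DESeq2). For Il10ra, the ligand-binding chain of the IL-10 receptor, normalised counts were 123, 95.7, 96.8 and 93.5 in WT replicates 1 to 4 and 522, 326, 335 and 329 in ARE-/- replicates 1 to 4. The 3 closer ARE-/- libraries were almost equal and ARE-/- replicate 1 lay well above them. Il10ra differed by 1.86 ± 0.19 on the log2 scale, with an adjusted p of 4.9e-15 in the authors' deposited table (DESeq2).

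The remaining receptor chains rose less. Il27ra, the receptor chain specific for IL-27, had a log2 difference of 0.80 ± 0.13, and its normalised counts were 52.8, 52.6, 62 and 66.8 in WT replicates 1 to 4 and 122, 97.3, 87.8 and 103 in ARE-/- replicates 1 to 4. Groups did not overlap, although the gene overlaps Palm3 on the opposite strand and its call was lost with GC offsets (edgeR adjusted p = 0.387). Il21r rose by 1.503 ± 0.15, Il3ra by 1.21 ± 0.22 and Il17rc, a chain of the IL-17 receptor, by 1.28 ± 0.30. In Il17rc, ARE-/- replicate 1 stood at 236 normalised counts and the other ARE-/- libraries at 517 to 573. Il4i1 matched the name rule but encodes an amino acid oxidase. It rose by 0.65 ± 0.10 and overlaps Nup62, Atf5 and Tbc1d17, and its call was lost in 5 of 8 edgeR refits without a single library (adjusted p up to 0.0867, with 0.00952 the smallest).

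Within-library ratios of member pairs show where paired transcripts moved unequally. Such ratios, taken on normalised count + 0.5, are free of library scaling except through the added 0.5. They are not per length, so only their change between groups can be read. The pairs were chosen with the directions of the genes known, and no test was made of them. The log2 ratio of Il12rb1 to Il12rb2 was -1.88 ± 0.51 in WT and 2.16 ± 0.87 in ARE-/- (± SD of 4 libraries). That of Il2rg to Il15 was -3.03 ± 0.29 in WT and -0.50 ± 0.15 in ARE-/-. Both ratios separated the groups by more than the spread within either. That of Il18bp to Il18 was 2.80 ± 0.50 in WT and 3.51 ± 0.17 in ARE-/-, without overlap. The gap was narrow, from 3.22 in WT replicate 4 to 3.27 in ARE-/- replicate 1, with 9 to 19 Il18 reads per WT library. The log2 ratio of Tnfrsf1b to Tnfrsf1a was -2.01 ± 0.25 in WT and -1.27 ± 0.34 in ARE-/-, likewise without overlap. Both of these shifts were smaller, and each rising partner outran a partner that rose too. For Csf1 over Il34, the pair of Csf1r ligands, the log2 ratio was 3.47 ± 0.32 in WT and 3.52 ± 0.34 in ARE-/-, a difference of 0.048 ± 0.23 (SE), within the spread. For the chromosome 7 neighbours Il4ra and Il21r it differed by 0.077 ± 0.22, also within the spread.

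**Figure D3:**
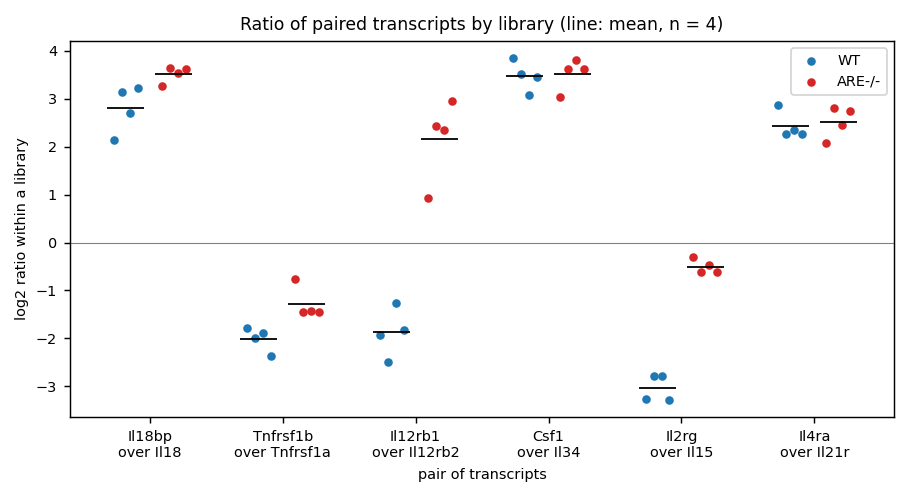
Log2 ratio of normalised counts + 0.5 within each library (y axis) for 6 pairs of members (x axis), with points for the 4 WT and 4 ARE-/- libraries and lines for group means. The groups separate for Il12rb1 over Il12rb2, Il2rg over Il15, Il18bp over Il18 (narrowly) and Tnfrsf1b over Tnfrsf1a, and overlap for the other pairs.

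All 7 listed ligands of the TNF superfamily, out of 14 on the list, rose, with a median log2 difference of 1.57. Tnfsf13b, the B cell survival factor BAFF, lies on chromosome 8, 10006843 to 10035441, forward strand (mm10, ENSMUSG00000031497). Across replicates 1 to 4, Tnfsf13b had 19.2, 19.1, 19.4 and 12.3 normalised counts in WT and 222, 80.6, 82.5 and 85.7 in ARE-/-. Groups were far apart, the 3 closer ARE-/- libraries were nearly equal, and ARE-/- replicate 1 lay far above them. On the log2 scale Tnfsf13b differed by 2.59 ± 0.39, with an adjusted p of 1.5e-09 in the authors' deposited table (DESeq2). For Tnfsf10, the death ligand TRAIL, normalised counts were 150.1, 214, 213 and 165 in WT replicates 1 to 4 and 867, 424, 459 and 521 in ARE-/- replicates 1 to 4. Again ARE-/- replicate 1 was the highest, and no ARE-/- library fell into the WT range. A log2 difference of 1.57 ± 0.27 was found for Tnfsf10, with an adjusted p of 2.9e-08 in the authors' deposited table (DESeq2).

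The other TNF family ligands were scarce or uneven. For Tnf itself, normalised counts were 3.60, 2.39, 10.6 and 12.3 in WT replicates 1 to 4 and 54, 15.7, 18.4 and 22.4 in ARE-/- replicates 1 to 4. The groups were separate, but the lowest ARE-/- library was close to the highest WT library. Tnf differed by 1.95 ± 0.66 on the log2 scale with an adjusted p of 0.0123 in the authors' deposited table (DESeq2), and the call was lost in 6 of 8 edgeR refits without a single library (adjusted p up to 0.111, with 0.0447 the smallest). For Tnfsf14, the ligand LIGHT, normalised counts were 6.01, 5.98, 10.6 and 13.4 in WT replicates 1 to 4 and 26.2, 32.4, 17.6 and 24 in ARE-/- replicates 1 to 4. Its log2 difference was 1.48 ± 0.33, with an adjusted p of 0.00957 in the authors' deposited table (DESeq2), and the call was lost in 3 of 8 edgeR refits without a single library (adjusted p up to 0.0615, with 0.0207 the smallest). Tnfsf18, the ligand of GITR, had 1 WT read and 30 ARE-/- reads in all, a ratio of 24.5 with an exact 95% interval of 4.07 to 998. Normalised counts of Tnfsf18 were 0, 0, 0.968 and 0 in WT replicates 1 to 4 and 13.9, 4.48, 1.76 and 5.61 in ARE-/- replicates 1 to 4. The level was thus at the edge of detection, and the call was lost when any 1 of the 4 WT libraries was left out (edgeR adjusted p between 0.0513 and 0.0628), with a log2 value of 5.77 without WT replicate 3 and 3.36 without ARE-/- replicate 1.

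Groups overlapped for the 2 remaining ligands. For Ltb, the membrane anchor chain of lymphotoxin, normalised counts were 118, 181, 456 and 155 in WT replicates 1 to 4 and 646, 424, 364 and 430.3 in ARE-/- replicates 1 to 4. WT replicate 3 lay inside the ARE-/- range, above ARE-/- replicates 2 to 4. Ltb had a log2 difference of 1.21 ± 0.46 with an adjusted p of 0.0354 in the authors' deposited table (DESeq2), and the edgeR refit gave an adjusted p of 0.0900 with all libraries and 0.00212 without WT replicate 3, where the log2 value was 1.62. When any 1 of the other 7 libraries was left out, the edgeR adjusted p lay between 0.108 and 0.257. For Tnfsf8, the ligand of CD30, normalised counts were 3.60, 2.39, 5.81 and 8.22 in WT replicates 1 to 4 and 37.6, 8.95, 14 and 8.01 in ARE-/- replicates 1 to 4. Only ARE-/- replicate 1 was well above WT. Its adjusted p was 0.0479 in the authors' deposited table (DESeq2), the largest of all members. The edgeR refit did not pass with all libraries (adjusted p = 0.0724) or in any of the 8 refits without a library (adjusted p between 0.0573 and 0.289), and without ARE-/- replicate 1 the log2 value fell to 1.00. Tnf and Ltb are neighbours on chromosome 17 with Lta, which was not listed.

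Receptors of the TNF superfamily rose in 7 of 8 listed members, out of 20 on the list, with a median log2 difference of 1.21. Both TNF receptors were higher. For Tnfrsf1b (TNFR2), the receptor found mainly on immune and endothelial cells, normalised counts were 129.7, 103, 155 and 101 in WT replicates 1 to 4 and 519, 438, 414 and 418 in ARE-/- replicates 1 to 4. For Tnfrsf1a (TNFR1), the widely expressed receptor with a death domain, normalised counts were 450.4, 409, 573 and 520.1 in WT replicates 1 to 4 and 879, 1196, 1116 and 1147 in ARE-/- replicates 1 to 4. Neither receptor had overlapping groups, and ARE-/- replicate 1 was the highest of its group for Tnfrsf1b and the lowest for Tnfrsf1a. Log2 differences were 1.89 ± 0.17 for Tnfrsf1b and 1.15 ± 0.15 for Tnfrsf1a. Adjusted p-values in the authors' deposited table were 2.1e-19 and 1.2e-09 (DESeq2). For Tnfrsf14, a receptor of LIGHT, normalised counts were 34.8, 17.9, 30.0 and 31.9 in WT replicates 1 to 4 and 118, 94, 122 and 107 in ARE-/- replicates 1 to 4. Tnfrsf14 showed a log2 difference of 1.96 ± 0.23, with an adjusted p of 1.1e-11 in the authors' deposited table (DESeq2), so the LIGHT receptor and its ligand were both listed as higher.

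For Tnfrsf12a, the receptor Fn14 of the cytokine TWEAK, normalised counts were 754, 757, 557 and 825 in WT replicates 1 to 4 and 1575, 1607, 1425 and 1463 in ARE-/- replicates 1 to 4. All ARE-/- libraries were close to each other and above all of WT, with WT replicate 3 the lowest. Tnfrsf12a differed by 1.08 ± 0.13 on the log2 scale, with an adjusted p of 7.1e-10 in the authors' deposited table (DESeq2). Its ligand Tnfsf12 was not listed. Tnfrsf9, the costimulatory receptor 4-1BB, rose by 2.77 ± 0.43 from 7.09 ± 4.97 to 45.2 ± 7.43 normalised counts (SD, n = 4 each), but it overlaps Camta1 on the opposite strand. Tnfrsf11a, the receptor RANK, rose by 1.27 ± 0.13. Tnfrsf21, the death receptor DR6, rose by 0.72 ± 0.18, and its call was lost in 5 of 8 edgeR refits without a single library (adjusted p up to 0.0662, with 0.00149 the smallest).

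Tnfrsf19, the receptor TROY, was the exception among TNF receptors and had the largest fall of all members. Tnfrsf19 stood at 55.3, 51.5, 38.7 and 44.2 normalised counts in WT replicates 1 to 4 and at 31.9, 21.3, 9.66 and 22.4 in ARE-/- replicates 1 to 4. No ARE-/- library reached the WT range, and ARE-/- replicate 3 was the lowest. Tnfrsf19 had a log2 difference of -1.24 ± 0.37, with an adjusted p of 0.0134 in the authors' deposited table (DESeq2), and the call was lost in 6 of 8 edgeR refits without a single library (adjusted p up to 0.101, with 0.00438 the smallest). It was also lost under library totals (edgeR adjusted p = 0.163).

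Promoter sequences are shown for 5 members on which these results turn, Il12b with the largest rise, the pair Tnf and Tnfrsf1b, Tnfsf13b as the largest rise of the TNF ligands that had more than 1 WT read, and Tnfrsf19 with the largest fall. RefSeq windows of build GRCm38.p6, from 250 bases before to 50 bases after a start site, were found for 33 of the 42 members, 39 windows in all. Capitals mark the letters TTCNNNGAA (the gamma-activated site, GAS, bound by STAT dimers), GAAANNGAA (paired GAAA half-sites as in interferon-stimulated response elements, ISRE) or GGANNTTCC (the kappa B motif of NF-kB), searched on both strands. Positions count bases from the RefSeq start site, which for Tnfsf13b lies before the gene start given above. The windows, each 5′ to 3′ on the gene's strand, are these.
Il12b, chr11:44399813-44400112, forward strand: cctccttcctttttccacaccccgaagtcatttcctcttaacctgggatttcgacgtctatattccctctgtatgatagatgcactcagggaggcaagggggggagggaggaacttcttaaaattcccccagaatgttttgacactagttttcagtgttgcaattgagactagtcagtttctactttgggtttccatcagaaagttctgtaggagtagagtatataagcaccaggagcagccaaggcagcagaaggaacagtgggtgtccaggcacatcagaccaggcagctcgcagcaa
Tnf, chr17:35201958-35202257, reverse strand: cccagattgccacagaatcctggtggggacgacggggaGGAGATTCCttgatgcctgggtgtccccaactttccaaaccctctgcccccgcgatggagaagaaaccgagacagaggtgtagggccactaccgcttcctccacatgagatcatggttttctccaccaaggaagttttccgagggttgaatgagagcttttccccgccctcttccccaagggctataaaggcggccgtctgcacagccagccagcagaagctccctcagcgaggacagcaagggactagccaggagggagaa
Tnfrsf1b, chr4:145246821-145247120, reverse strand: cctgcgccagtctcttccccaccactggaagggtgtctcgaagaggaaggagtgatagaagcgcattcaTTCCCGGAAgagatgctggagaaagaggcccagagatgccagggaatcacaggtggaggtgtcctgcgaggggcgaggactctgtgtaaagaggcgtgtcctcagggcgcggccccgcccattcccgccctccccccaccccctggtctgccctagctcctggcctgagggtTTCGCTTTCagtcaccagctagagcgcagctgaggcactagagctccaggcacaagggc
Tnfsf13b, chr8:10006383-10006682, forward strand: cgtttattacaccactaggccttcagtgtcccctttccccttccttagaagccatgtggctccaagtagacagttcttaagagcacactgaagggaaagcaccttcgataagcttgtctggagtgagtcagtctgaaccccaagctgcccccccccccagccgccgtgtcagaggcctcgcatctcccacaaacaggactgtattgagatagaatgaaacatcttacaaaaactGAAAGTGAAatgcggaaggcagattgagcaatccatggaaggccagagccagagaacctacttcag
Tnfrsf19, chr14:61046806-61047105, reverse strand: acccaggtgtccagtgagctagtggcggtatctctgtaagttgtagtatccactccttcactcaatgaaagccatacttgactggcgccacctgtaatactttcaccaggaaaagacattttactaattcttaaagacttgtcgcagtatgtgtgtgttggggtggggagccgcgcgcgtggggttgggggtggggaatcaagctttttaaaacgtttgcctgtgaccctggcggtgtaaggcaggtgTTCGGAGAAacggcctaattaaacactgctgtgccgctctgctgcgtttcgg

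The Il12b window held none of the 3 motifs. The Tnf window held a kappa B match (GGAGATTCC) that starts at -212. The Tnfrsf1b window held a GAS match (TTCCCGGAA) at -181 and an ISRE-type match on the opposite strand (TTCGCTTTC) at -9. The Tnfsf13b window shown held an ISRE-type match (GAAAGTGAA) at -16. The window shown for the fallen gene Tnfrsf19 held a GAS match (TTCGGAGAA) at -2. Tnfsf13b and Tnfrsf19 each had another window, at a different start site, that held none of the 3 motifs. For both genes, only the window with a match is shown. A GAS match was present in 8 of 39 member windows (20.5%), in Csf2rb2, Ifnar2, Il12rb2, Ltb, Tnfrsf19, Tnfrsf1a, Tnfrsf1b and Tnfrsf9, against 8.30% of all 32851 windows. ISRE-type matches were present in 4 windows (10.3% against 8.56%), in Tnfrsf14, Tnfrsf1b, Tnfsf13b and Tnfsf8. Kappa B matches were present in 5 windows (12.8% against 4.26%), in Csf1, Ltb, Tnf, Tnfaip2 and Tnfaip3. The kappa B and GAS letters share TTC and can overlap. These shares are a description of short windows and were not tested, and 2 of the 8 genes with a GAS match, Il12rb2 and Tnfrsf19, fell.

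Of 8 genes for TNF-induced proteins on the list, 4 were listed, with 3 higher and 1 lower and a median log2 difference of 1.46. For Tnfaip2, first found as a TNF-induced transcript of endothelial cells, normalised counts were 522, 451, 436 and 527 in WT replicates 1 to 4 and 1193, 3426, 3343 and 3548 in ARE-/- replicates 1 to 4. ARE-/- replicate 1 lay far below the other ARE-/- libraries and still above WT. Tnfaip2 showed a log2 difference of 2.45 ± 0.39, with an adjusted p of 3.3e-15 in the authors' deposited table (DESeq2). For Tnfaip8l2 (TIPE2), a regulator of lymphoid and myeloid cells, normalised counts were 111, 63.4, 131 and 95.6 in WT replicates 1 to 4 and 446, 409.5, 371 and 401 in ARE-/- replicates 1 to 4. These were even within ARE-/-, and the log2 difference was 2.06 ± 0.23 with an adjusted p of 1.5e-17 in the authors' deposited table (DESeq2).

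For Tnfaip3, the enzyme A20 that restrains NF-kB, normalised counts were 68.5, 35.9, 83.3 and 59.6 in WT replicates 1 to 4 and 155, 98.5, 89.6 and 97.7 in ARE-/- replicates 1 to 4. Groups did not overlap, and the closest libraries were WT replicate 3 and ARE-/- replicate 3. Tnfaip3 differed by 0.86 ± 0.31 on the log2 scale with an adjusted p of 0.0328 in the authors' deposited table (DESeq2), but the edgeR refit missed with all libraries (adjusted p = 0.0581), and the call was lost in 7 of 8 edgeR refits without a single library (adjusted p up to 0.143, with 0.0435 the smallest). For Tnfaip8, a relative of Tnfaip8l2 known as an inhibitor of apoptosis, normalised counts were 1193, 1220.5, 1330.2 and 1133 in WT replicates 1 to 4 and 1123, 824, 895 and 853 in ARE-/- replicates 1 to 4. ARE-/- replicate 1 lay just below the lowest WT library and the other 3 lay clearly below. Tnfaip8 had a log2 difference of -0.41 ± 0.11, the smallest of all members in size, with an adjusted p of 0.0355 in the authors' deposited table (DESeq2). The call was lost in 7 of 8 edgeR refits without a single library (adjusted p up to 0.133, with 0.000362 the smallest) and under library totals (edgeR adjusted p = 1.00).

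Colony-stimulating factors and their receptors all rose, 5 of 5 listed out of 8 on the list, with a median log2 difference of 1.42. For Csf1r, the receptor that sustains macrophages, normalised counts were 483, 449, 554 and 469 in WT replicates 1 to 4 and 1210.0, 1296, 1172 and 1229 in ARE-/- replicates 1 to 4. The spread within groups was small and the groups were far apart. Csf1r showed a log2 difference of 1.33 ± 0.07, with an adjusted p of 1.5e-23 in the authors' deposited table (DESeq2). Csf1r overlaps the protein-coding gene Hmgxb3 on the opposite strand. For its ligand Csf1, normalised counts were 389, 414, 323 and 386 in WT replicates 1 to 4 and 513, 873, 859 and 803 in ARE-/- replicates 1 to 4. The closest to WT was ARE-/- replicate 1. Csf1 differed by 0.98 ± 0.20 on the log2 scale, with an adjusted p of 1.6e-05 in the authors' deposited table (DESeq2).

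The receptor chains of GM-CSF were higher too. For Csf2ra, normalised counts were 143, 191, 334 and 162 in WT replicates 1 to 4 and 442, 459, 588 and 645 in ARE-/- replicates 1 to 4. WT replicate 3 was the highest of its group and stayed below ARE-/-. Csf2ra had a log2 difference of 1.42 ± 0.30, with an adjusted p of 2.4e-05 in the authors' deposited table (DESeq2). For Csf2rb, the beta chain shared by the receptors of GM-CSF, IL-3 and IL-5, normalised counts were 39.6, 38.3, 65.8 and 53.4 in WT replicates 1 to 4 and 203, 129, 125 and 166 in ARE-/- replicates 1 to 4. For Csf2rb2, a mouse beta chain specific for IL-3, normalised counts were 12, 10.8, 14.5 and 17.5 in WT replicates 1 to 4 and 66.2, 53.7, 48.3 and 58.5 in ARE-/- replicates 1 to 4. Both beta chains separated the groups, with log2 differences of 1.65 ± 0.25 and 2.02 ± 0.18. Adjusted p-values in the authors' deposited table were 5.0e-08 and 1.8e-08 (DESeq2). The pair are near-identical copies side by side on chromosome 15, and how reads were divided between the copies is uncertain. Csf2, Csf3 and Csf3r were not listed.

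Of 4 interferon receptor chains, Ifnar2, a chain of the receptor for type I interferons, was the only one listed. Across replicates 1 to 4, Ifnar2 had 231, 229, 369.8 and 241 normalised counts in WT and 509, 403, 406 and 399.8 in ARE-/-. The lowest ARE-/- library lay just above WT replicate 3, which stood apart from the other WT libraries. Ifnar2 showed a log2 difference of 0.71 ± 0.19, with an adjusted p of 0.008 in the authors' deposited table (DESeq2), and the call was lost without WT replicate 1, 2 or 4 (edgeR adjusted p between 0.0745 and 0.0749). Ifnar2 overlaps Gm21970 on the same strand. Both chains of the interferon gamma receptor, Ifngr1 and Ifngr2, were not listed and have no known direction here.

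Per length, as FPKM in the authors' deposited values, the most abundant member in both groups was Tnfrsf12a, at 44.4 ± 7.10 in WT and 108 ± 15.3 in ARE-/- (± SD of 4 libraries). In WT it was followed by Il15, Tnfaip8 and Tnfrsf1a, whose levels of 14.7 ± 0.922, 14.2 ± 1.07 and 13.4 ± 2.33 FPKM lay within their spread. In ARE-/- it was followed by Tnfaip2 at 48.9 ± 16.8 and Tnfrsf1a at 34 ± 2.23 FPKM. Il18bp stood at 4.47 ± 0.532 in WT and 27.8 ± 10.8 in ARE-/-, and its target Il18 at 1.31 ± 0.507 in WT and 5.0 ± 2.68 in ARE-/-. The antagonist transcript thus lay above that of its ligand in both groups. The scarcest in ARE-/- were Tnfsf18, Tnfrsf19 and Tnfsf8, at 0.224 ± 0.207, 0.321 ± 0.166 and 0.324 ± 0.301 FPKM. In 8 members the WT mean was under 10 normalised counts, and the median member had a WT mean of 60.2, against 167 over all listed genes.

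Members differed in how they stood in ARE-/- replicate 1. In 13 of 42 members (31.0%) this library lay more than 0.5 log2 units above the other 3 ARE-/- libraries, against 20.9% of all listed genes, and in 3 (7.14%) it lay as far below them, against 18.9%. The 13 were Il10ra, Il12b, Il12rb2, Il18, Il18bp, Il1rn, Ltb, Tnf, Tnfaip3, Tnfsf10, Tnfsf13b, Tnfsf18 and Tnfsf8, and the 3 were Csf1, Il17rc and Tnfaip2. Of the 7 listed TNF family ligands, 6 were in the first set, all but Tnfsf14, and none of the 8 listed TNF receptors was in either. No other library held more than 5 members outside the range of its group by that distance on either side. WT replicate 3 lay above its group in Csf2ra, Ifnar2, Ltb and Tnfsf18. Across members, the median distance from the WT mean was 1.64 in ARE-/- replicate 1 and 1.34, 1.52 and 1.54 in replicates 2 to 4.

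**Figure D4:**
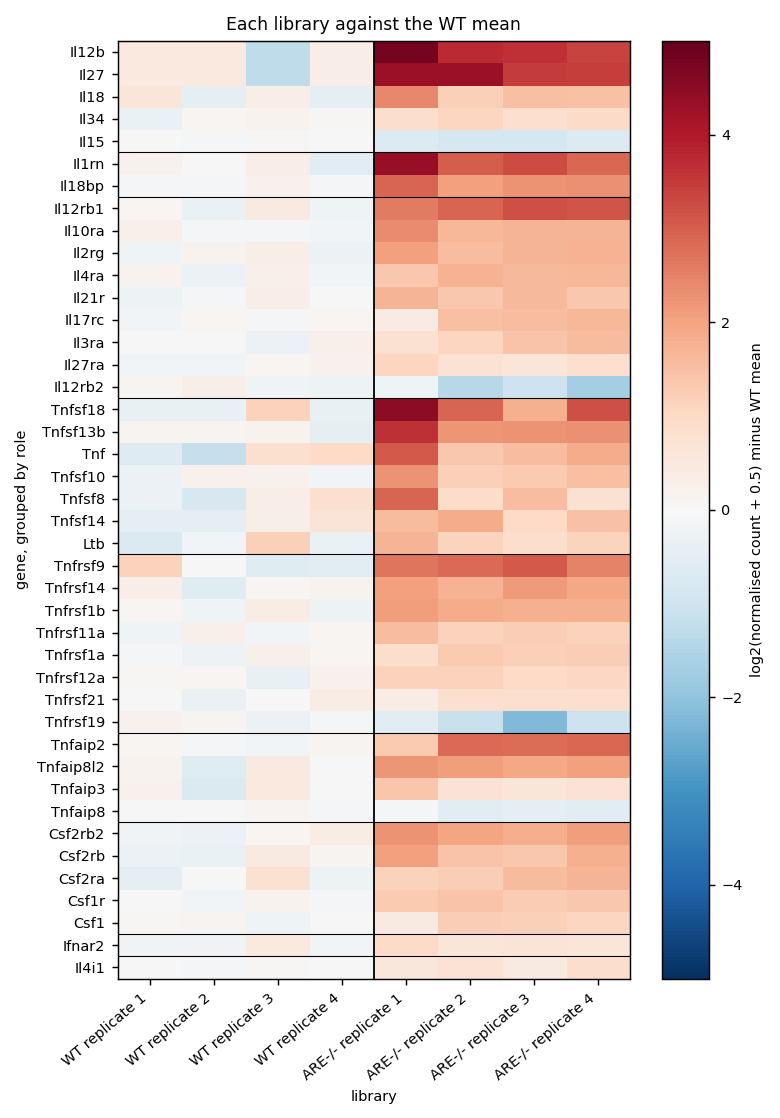
Log2(normalised count + 0.5) of each member (rows, grouped by role) minus its WT mean, in each of the 8 libraries (columns), in red where higher and blue where lower, with the colour scale running from -5 to 5. Among ARE-/- libraries, replicate 1 is the darkest red for Il1rn, Tnfsf13b, Tnf, Tnfsf8 and Tnfsf18 and the palest for Tnfaip2, Il17rc and Csf1.

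Among markers of immune cells, which carry many of these receptors, those of macrophages, T and NK cells and dendritic cells mostly rose where listed. Of 16 macrophage and monocyte markers 12 were listed, 11 higher and 1, Cd163, lower, and their summed normalised counts were 7201 to 11870.0 in WT and 41504 to 58887 in ARE-/-. All 13 listed of 16 T cell and NK cell markers were higher, with sums of 279.6 to 651 in WT and 2103 to 2956 in ARE-/-. All 4 listed of 8 dendritic cell markers were higher, with sums of 89.4 to 120.0 in WT and 535 to 692 in ARE-/-. These ranges did not overlap between groups, and their part in the rises of the members was not tested. In each of these 3 lists ARE-/- replicate 1 had the highest sum, and WT replicate 3 had the highest sum of WT. Listed markers of other immune cells, namely mast cells, neutrophils and B cells, went down. All 5 listed of 6 mast cell markers were lower, with sums of 337 to 450.2 in WT and 20.1 to 21.6 in ARE-/-, and all 5 listed of 9 neutrophil markers were lower, with sums of 115 to 221 in WT and 19.2 to 43.3 in ARE-/-. The 1 listed B cell marker of 7, Pax5, was lower, with 49.1 to 66.8 in WT and 3.20 to 21.3 in ARE-/-. Both listed endothelial markers of 8 were lower, at 2240.2 to 2881 in WT and 1506 to 2019.7 in ARE-/-, and all 3 listed of 8 fibroblast markers were higher, at 2592 to 3279.9 in WT and 4550.1 to 5554 in ARE-/-. The cardiomyocyte sums are given above, and WT replicate 3 and ARE-/- replicate 1 were the lowest of their groups in them. No listed marker was at 0 in all libraries, and markers outside the table have no known level.

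Genes that pass on the signals of these receptors were mostly higher where listed. Of 63 such genes on 6 lists 29 were listed, 26 higher and 3 lower. The step that releases active IL-1 and IL-18 had 6 of 7 genes listed, all higher with a median log2 difference of 1.60. Casp1, the protease that cleaves the precursors, rose by 3.99 ± 0.45, the adaptor Pycard by 1.59 ± 0.16 and the pore protein Gsdmd by 1.39 ± 0.13. Of 15 NF-kB subunits, inhibitors and kinases 9 were listed and all were higher with a median log2 difference of 1.07. Those with the smallest adjusted p were the inhibitor Nfkbie (2.27 ± 0.18), Relb (1.14 ± 0.09) and Nfkb2 (1.11 ± 0.21). Groups did not overlap in 6 of the 9, where 81.5% of all listed genes had no overlap. In ARE-/- replicate 1, Rela stood at 388 normalised counts, below the WT range of 413 to 472. There Nfkbib stood at 343, inside the WT range of 319 to 385. The calls of Nfkbia, Nfkbib and Rela were lost in the edgeR refits with TMM factors and with GC offsets. Of 4 Janus kinases Tyk2 (1.16 ± 0.21) and Jak3, the partner of the common gamma chain (0.99 ± 0.29, groups overlapping), were listed as higher. The call of Jak3 was lost without WT replicate 1, 2 or 4 (edgeR adjusted p between 0.0511 and 0.0557).

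Adaptors of the receptors moved both ways. Of 14 TNF receptor adaptors 5 were listed, 4 higher and 1 lower with a median log2 difference of 0.77. Among them were Traf1 (1.48 ± 0.27), Tradd, the TNFR1 adaptor (1.05 ± 0.19), and Traf5 (0.65 ± 0.14). The call of Tradd was lost with GC offsets (edgeR adjusted p = 0.0833). That of Traf5 was lost with TMM factors (edgeR adjusted p = 0.1035). It was also lost without WT replicate 2, 3 or 4 and without ARE-/- replicate 2, 3 or 4 (edgeR adjusted p between 0.0752 and 0.102). Traf6 stood at -0.62 ± 0.19 and lost its call in the edgeR refit of all libraries (adjusted p = 0.0514). Of 11 IL-1 receptor and Toll adaptors 3 were listed, Myd88 (1.03 ± 0.06) and Irak4 (0.90 ± 0.25) higher and Tab3 (-0.86 ± 0.15) lower. The call of Irak4 was lost without WT replicate 2, 3 or 4 (edgeR adjusted p between 0.0528 and 0.0733). That of Tab3 was lost with library totals (edgeR adjusted p = 0.0677). Of 12 IL-6 family and related genes outside the name rule 4 were listed. Among them Crlf2, a receptor chain for TSLP, was higher (1.80 ± 0.35) and Lifr, the LIF receptor, was lower (-0.57 ± 0.13). The call of Lifr was lost with library totals (edgeR adjusted p = 0.3345). It was also lost without WT replicate 4 or ARE-/- replicate 2 or 4 (edgeR adjusted p between 0.0550 and 0.0598). Adjusted p-values of the pathway genes named here ran, in the authors' deposited table, from 6.4e-24 for Casp1 to 0.0478 for Ebi3 (DESeq2).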

How the data were processed

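Whole-heart RNA of 8 mice was sequenced. Read counts per gene are whole numbers, per the file headers and values. The authors deposited FPKM values from the same reads, group means of normalised counts (a signal scaled by size factors), log2 fold changes and p-values with adjusted p-values. STAR, DESeq2 and the build mm10 are named in the submitters' processing notes without versions, and no source used here names the counter, the annotation or whether strand was used. Beyond the overlaps named above, Il4ra, Il3ra, Il10ra, Tnfaip2, Tnfaip8, Tnfrsf19 and Tnfsf13b each overlap a gene not typed as protein-coding on the opposite strand. Genes in the deposited table all have an adjusted p below 0.05, and the number of genes tested, 19606, was recovered from the adjustment, and library totals were recovered from counts, FPKM and gene lengths.

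Size factors were recovered from the deposited group means, and normalised counts are counts divided by them. Log2 differences are ARE-/- less WT means of log2(normalised count + 0.5), with the SE over 4 libraries per group. Calls are the authors' own. Refits of the listed genes used edgeR 4.0.16 and DESeq2 1.42.0 in R 4.3.3, with Benjamini-Hochberg adjustment as if all 19606 genes had been in the fit. They are alternatives only, since the listed genes were selected by the same contrast. Only the edgeR fit of all libraries, the edgeR fit with the replicate block and the DESeq2 fit were run on simulated counts. Those counts held mostly unchanged genes and no library that stood apart, so that run does not test refits of these data. Exact 95% intervals of read ratios cover counting error only.

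Members and lists (roles, pathways, cell type markers) were chosen with earlier results of these data known. Within each role, values in every library were given for the 4 members with the smallest adjusted p, for members against the direction of their list, and for ligand and receptor pairs, and up to 3 genes by adjusted p were named per pathway list. A pathway gene that this rule would name is not reported here. Il17rc, Ltb, Tnfsf8, Ebi3, Il2rb, Cd163, Pax5, Traf6, Nfkbia, Nfkbib and Rela were given values or named after their values were seen. Alternatives covered thresholds, low counts, pseudocounts, scaling, left-out or summed libraries, GC content (known for 99.4% of listed genes) and the replicate number.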

Additional observations from a re-analysis of the deposited data

Results flagged for a closer look

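In 16 of 84 groups (42 members in WT and in ARE-/-) a single library lay far from the other 3, by a gap of over 0.83 of the group's range. For independent, normally distributed values about 1 in 20 groups would be flagged. The members share the same 8 libraries and the share flagged over all listed genes was not counted, so that rate is no yardstick here. Of the 16, 9 were in ARE-/- replicate 1, 5 in WT replicate 3, 1 in WT replicate 1 and 1 in WT replicate 4. ARE-/- replicate 1 was the highest of its group, in normalised counts, for Ifnar2 (509), Il10ra (522), Il1rn (133), Tnfaip3 (155), Tnfrsf11a (65.4) and Tnfsf13b (222), and the lowest for Il17rc (236), Tnfaip2 (1193) and Tnfrsf21 (149). WT replicate 3 was the highest for Ifnar2 (370), Il18bp (122) and Tnfsf18 (0.968, a single read against 0 in the other WT libraries). It was the lowest for Il12b (0) and Il27 (0), where each other WT library held a single read. WT replicate 1 was the highest for Il10ra (123), and WT replicate 4 the lowest for Tnfsf13b (12.3).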

How the results depend on the processing

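No member changed direction under any of the alternatives run, but all had been selected by the same contrast on the same libraries. In all 17 refits 7 of 42 kept the call, and the share of all listed genes that did so was not counted. The fit with the close libraries summed passed 297 of the 4820 listed genes. Alternatives in pseudocount and low counts reused the authors' adjusted p, so no call could be lost there. Members risen and fallen numbered 38 and 4 as listed by the authors. The fallen count was 1 at an adjusted p under 0.01, 1 at a log2 fold change of at least 1 in size, 1 with library totals and 0 with the close libraries summed, where 7 members and 2 pathway genes rose. Pathway genes fallen, 3 as listed, were 0 at a log2 fold change of at least 1 in size, 0 with library totals and 0 with the close libraries summed. The median member difference, 1.51, was 1.35 with a pseudocount of 5, 1.74 with library totals, 1.23 with GC offsets and 1.22 with the replicate block and GC offsets. The median of all listed genes moved from 0.45 in the edgeR refit to 0.31 with TMM, 0.64 with library totals and 0.16 with GC offsets. Leaving out a single library gave 29 to 35 members risen and 1 to 4 fallen, 16 to 23 pathway genes risen and 1 to 3 fallen, and a median of 1.39 to 1.67 (edgeR), with p between 0.143 and 0.943 for total reads (exact permutation test). The edgeR refit of all libraries had 3 members fallen, and the fits without a library had 1 or 2, except 4 without ARE-/- replicate 1, and pathway genes risen were 16, 17 and 16 without WT replicates 2, 3 and 4. The replicate block (edgeR) left 32 members risen and 3 fallen with a median of 1.52, and 19 pathway genes risen and 2 fallen. Deviations of same-numbered libraries correlated at -0.00732, 0.0621, -0.179 and 0.25, so the numbers were not used as pairs, and 2 of 8 libraries correlated best with their own number in the other group. Over all listed genes, the count past the threshold was 4820 as listed, 4292 in the edgeR refit, 4809 with DESeq2, 3078 with the replicate block and GC offsets and 297 with the close libraries summed, where only 2 replicates per group remain. Without any 1 of the libraries it was 2765 to 4527, the lowest 2765 without WT replicate 1, 2767 without WT replicate 4 and 2801 without WT replicate 2. Depth limited Il12b, Il27 and Tnfsf18, with 1 to 3 WT reads in all. The cause of these changes was not tested.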
